A study of Mus musculus with 3 samples.

Results

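The erythroid microRNAs (miRNAs) miR-144-3p, miR-451a and miR-486a-5p were examined in small RNA sequencing of wild-type C57BL/6 mouse hearts. Hearts were taken on postnatal day 1 (P1), 7 (P7) or 28 (P28), and each age was represented by 1 library. The mice carried no transgene or deletion, and the libraries were made from whole tissue, called heart in the labels and ventricles in the study's text. The members were chosen by their miRBase accessions (MIMAT0000156, MIMAT0001632 and MIMAT0003130), by a rule that uses no counts. They are 3 of the 1900 mature accessions in the count table, and each had 1 row.

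A miRNA is a short noncoding RNA that guides an Argonaute protein to messenger RNAs and lowers their output, mainly by pairing through its seed, bases 2 to 8 from the 5′ end. miR-144 and miR-451a are made from one primary transcript that the erythroid transcription factor GATA1 activates, and they accumulate in maturing red blood cells. Most miRNA hairpins are cut by Drosha and then by Dicer. The short hairpin of miR-451a bypasses Dicer and is cut by Argonaute 2, after which its 3′ end is trimmed. miR-486 is abundant in red cells too, but it is also made in heart and skeletal muscle, from an intron of Ank1, the gene of the membrane skeleton protein ankyrin 1. A level of miR-486a-5p in heart tissue therefore need not come from blood.

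The mature sequences available for 2 of the 3 members are shown 5′ to 3′ to compare their seeds, which are in capitals. They are from RefSeq on GRCm38.p6, the same assembly as the mm10 build named in the submitters' processing notes.

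miR-144-3p: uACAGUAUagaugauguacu
miR-451a: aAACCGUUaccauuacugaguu
miR-101a-3p: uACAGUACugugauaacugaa

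miR-144-3p is 20 bases long with a GC content of 30.0%, and miR-451a is 22 bases long with 36.4%. Their seeds differ, so the sites they pair with differ although they come from one transcript. Among the 1679 RefSeq mouse mature sequences compared, which are not a complete set, 0 others had the 7-base seed of either miRNA. The first 6 seed bases of miR-144-3p were shared by 1 other entry, miR-101a-3p, which is printed above for that reason and whose reads were not analysed here. For miR-451a, 0 others shared the first 6 bases.

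Both sequences lie on the plus strand of chromosome 11. The hairpin gene Mir144 spans chr11:78073005-78073070, with miR-144-3p at chr11:78073047-78073066. The hairpin gene Mir451a spans chr11:78073170-78073241, with miR-451a at chr11:78073186-78073207. Only 99 bases separate these hairpins. In GENCODE M21 no protein-coding gene overlaps them. The nearest is Eral1, which is on the minus strand and whose nearer edge lies 134 bases past Mir451a. Mir451b is annotated on the minus strand over exactly the interval of Mir451a. Mir486 spans chr8:23142555-23142682 on the plus strand, inside Ank1 (chr8:22974844-23150497, plus strand). It falls within 15 annotated Ank1 transcripts and overlaps an exon of 0 of them, so its annotated position is intronic. Gm15816 and Mir3107 overlap it on the minus strand. Whether the counting used strand is not given in the sources used here, so it is unknown whether reads of antisense partners were kept apart. The counts of miR-451a matched those of 0 other accessions within 1%.

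The hairpins are shown with the mature part in capitals, because the place of the mature sequence sets miR-451a apart.

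Mir144 hairpin: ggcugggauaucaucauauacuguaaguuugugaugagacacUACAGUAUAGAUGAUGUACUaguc
Mir451a hairpin: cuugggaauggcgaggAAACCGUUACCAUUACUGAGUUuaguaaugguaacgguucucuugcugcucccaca

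In the minimum free energy structures given by RNAfold, miR-144-3p covers bases 43 to 62 of a hairpin of 66 bases and lies wholly past the loop, which takes bases 31 to 36. miR-451a covers bases 17 to 38 of 72. Its last 4 bases are the predicted loop itself, at bases 35 to 38, and 17 of its bases are paired. The predicted free energy was -28.6 kcal/mol for the Mir144 hairpin and -43.3 kcal/mol for the Mir451a hairpin.

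The P1 library held 1944237 counts, the P7 library 2465680 and the P28 library 2842526. Levels are given as CPM, the share of a library's total over all rows scaled so that the whole library sums to 1000000, and 1 read was worth 0.514, 0.406 and 0.352 CPM in the 3 libraries. Intervals are 95% intervals for counting error only: Wilson intervals for levels and exact intervals for ratios. No molecular identifiers are stated, so reads copied from one molecule count separately. With 1 library per age, the spread between hearts is unknown and none of the differences has a replicate check.

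By library totals, all 3 miRNAs were least abundant at P1 and were higher by at least 2-fold at P7, narrowly so for miR-144-3p, whose call was lost under 5 of 7 alternatives. From P7 to P28 they diverged. By library totals miR-451a and miR-486a-5p were at or above their P7 levels and miR-144-3p lay between its levels at P1 and P7, but under TMM scaling or DESeq2 size factors miR-144-3p was slightly above its P7 level. miR-486a-5p was by far the most abundant member at every age.

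miR-144-3p was at 37.5 CPM at P1 (73 reads, interval 29.9 to 47.2). It was at 76.7 CPM at P7 (189 reads, 66.5 to 88.4). It was at 53.5 CPM at P28 (152 reads, 45.6 to 62.7). By library totals P7 was thus the highest library, and the counting intervals of P7 and P28 did not overlap, while those of P1 and P28 did. Overlap of 2 such intervals does not show equal levels. The exact interval of the ratio of P28 to P1 was 1.07 to 1.91, which excluded no change. With TMM scaling or DESeq2 size factors P28 was the highest library instead, with log2 ratios of 0.077 and 0.29 to P7.

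miR-451a was at 36.0 CPM at P1 (70 reads, 28.5 to 45.5). It was at 81.1 CPM at P7 (200 reads, 70.6 to 93.2). It was at 99.6 CPM at P28 (283 reads, 88.6 to 112). P1 was separate from both later libraries. The intervals of P7 and P28 overlapped, but by library totals the exact interval of their ratio, 1.02 to 1.48, excluded no change. At P1 and P7, but not at P28, the intervals of miR-144-3p and miR-451a overlapped each other.

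miR-486a-5p was at 303 CPM at P1 (589 reads, 279 to 328). It was at 709 CPM at P7 (1749 reads, 677 to 743). It was at 744 CPM at P28 (2116 reads, 713 to 777). As for miR-451a, P1 stood below the other libraries and the P7 and P28 intervals overlapped. Here the exact interval of the ratio of P28 to P7, 0.985 to 1.12, included no change. These counts were identical in all 3 libraries to those of 1 other mature accession, MIMAT0014944, which the table does not name. The 2 accessions therefore give 1 measurement, and the level of miR-486a-5p is uncertain to the extent that these reads belong to the other. miR-144-3p and miR-451a matched 0 other accessions within 1%.

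**Figure D1:**
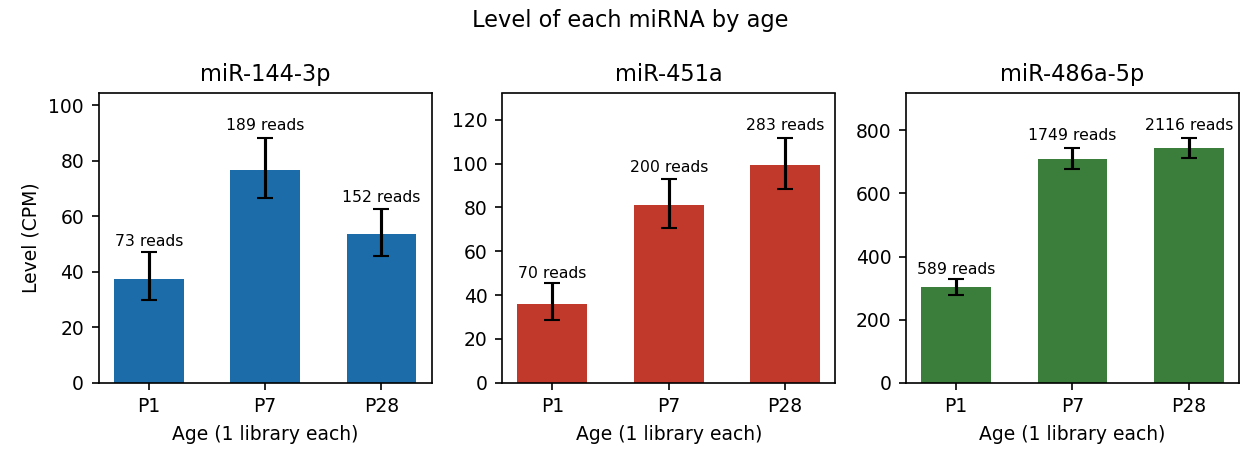
Bars give the level in CPM (y axis, a separate scale for each panel, starting at 0) of miR-144-3p, miR-451a and miR-486a-5p in the P1, P7 and P28 libraries (x axis), and error bars are 95% Wilson intervals for counting error. P1 is lowest for each miRNA, and by library totals only miR-144-3p is lower at P28 (53.5 CPM) than at P7 (76.7 CPM), an order that turns under TMM scaling and DESeq2 size factors.

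Together the 3 miRNAs made up 376 CPM (350 to 405) of the P1 library, 867 CPM (831 to 905) of the P7 library and 897 CPM (863 to 933) of the P28 library. miR-486a-5p gave 80.5%, 81.8% and 82.9% of these reads, so the joint level follows it closely. Ordered from the most abundant mature accession down, miR-486a-5p was at place 97 of the 657 detected at P1, 65 of 712 at P7 and 57 of 606 at P28. miR-451a was at places 200, 148 and 115. miR-144-3p was at places 196, 150 and 141. As fewer accessions were detected at P28, the share of detected accessions below miR-144-3p was 69.9% in the P1 library, 78.9% in the P7 library and 76.7% in the P28 library. In whole tissue, fewer cells of a type and less RNA per cell cannot be told apart. Whether the hearts were rinsed of blood is not given in the sources used here. Accessions of leukocyte, endothelial or muscle miRNAs were not paired with names, so markers of other cells were not analysed here.

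The comparison of P7 with P1 covers the days after birth in which mouse cardiomyocytes leave the cell cycle. In all, the mean over the 3 libraries reached 10 CPM for 279 mature accessions, including 3 of the 3 members, and an accession was called when its log2 ratio, with 0.5 reads added, reached 2-fold. Of the 279 accessions, 11.1% were called higher and 11.5% lower at P7. Among the members, 3 of 3 were called higher and 0 lower. The ratio was 2.04 for miR-144-3p (interval 1.55 to 2.71), 2.25 for miR-451a (1.71 to 3.002) and 2.34 for miR-486a-5p (2.13 to 2.57). Only the interval of miR-486a-5p lay wholly above 2-fold. On the log2 scale these ratios were 1.02, 1.17 and 1.23, against a median of 0.029 over all 279 accessions. The share of accessions with a lower ratio was 89.6% for miR-144-3p, 92.5% for miR-451a and 94.98% for miR-486a-5p. The call of miR-144-3p was marginal. Its log2 ratio was below the threshold under TMM scaling (0.988), DESeq2 size factors (0.934), a total over mature rows (0.994), a total with identical rows counted once (0.979) and a pseudocount of 5 reads (0.972). miR-451a and miR-486a-5p were called under all 7 alternatives.

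Between P1 and P28, 13.6% of the accessions were called higher and 42.7% lower. The members that were called were miR-451a, at 2.77-fold (2.12 to 3.65), and miR-486a-5p, at 2.46-fold (2.24 to 2.70), both higher at P28. miR-144-3p was at 1.42-fold (1.07 to 1.91) and was not called. The log2 ratios were 1.46, 1.30 and 0.51, whereas the median over all accessions was -0.74. Relative to that median the difference was 2.20 for miR-451a, 2.03 for miR-486a-5p and 1.24 for miR-144-3p. Of all accessions, 94.98% had a lower ratio than miR-451a, 90.7% a lower one than miR-486a-5p and 78.1% a lower one than miR-144-3p. TMM scaling moved the median of all accessions by 0.56 and DESeq2 size factors moved it by 0.71. miR-144-3p then reached the threshold, with log2 ratios of 1.07 and 1.22, and the share of accessions called higher was 22.9% and 27.6%.

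In the step from P7 to P28, 2.87% of accessions were called higher and 42.7% lower, and 0 of the 3 members were called in either direction. miR-451a was at 1.23-fold (1.02 to 1.48), miR-486a-5p at 1.05-fold (0.985 to 1.12) and miR-144-3p at 0.698-fold (0.560 to 0.868). The log2 ratios were 0.29, 0.070 and -0.52, against a median of -0.79 over all accessions. All 3 members thus lay above the median accession, by 1.08 for miR-451a, 0.86 for miR-486a-5p and 0.27 for miR-144-3p. A lower ratio was found for 86.7%, 79.6% and 58.1% of the accessions. The direction for miR-144-3p rested on the scaling: its log2 ratio was -0.17 without the 10 most abundant accessions in the total, 0.077 under TMM and 0.29 under DESeq2 size factors. For miR-451a the same scalings gave 0.64, 0.89 and 1.10, the last past the threshold. For miR-486a-5p they gave 0.42, 0.67 and 0.87. Under DESeq2 size factors, 15.4% of all accessions were called higher and 19.7% lower in this step. The comparisons share libraries with each other, so the values of one are not independent of the next.

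**Figure D2:**
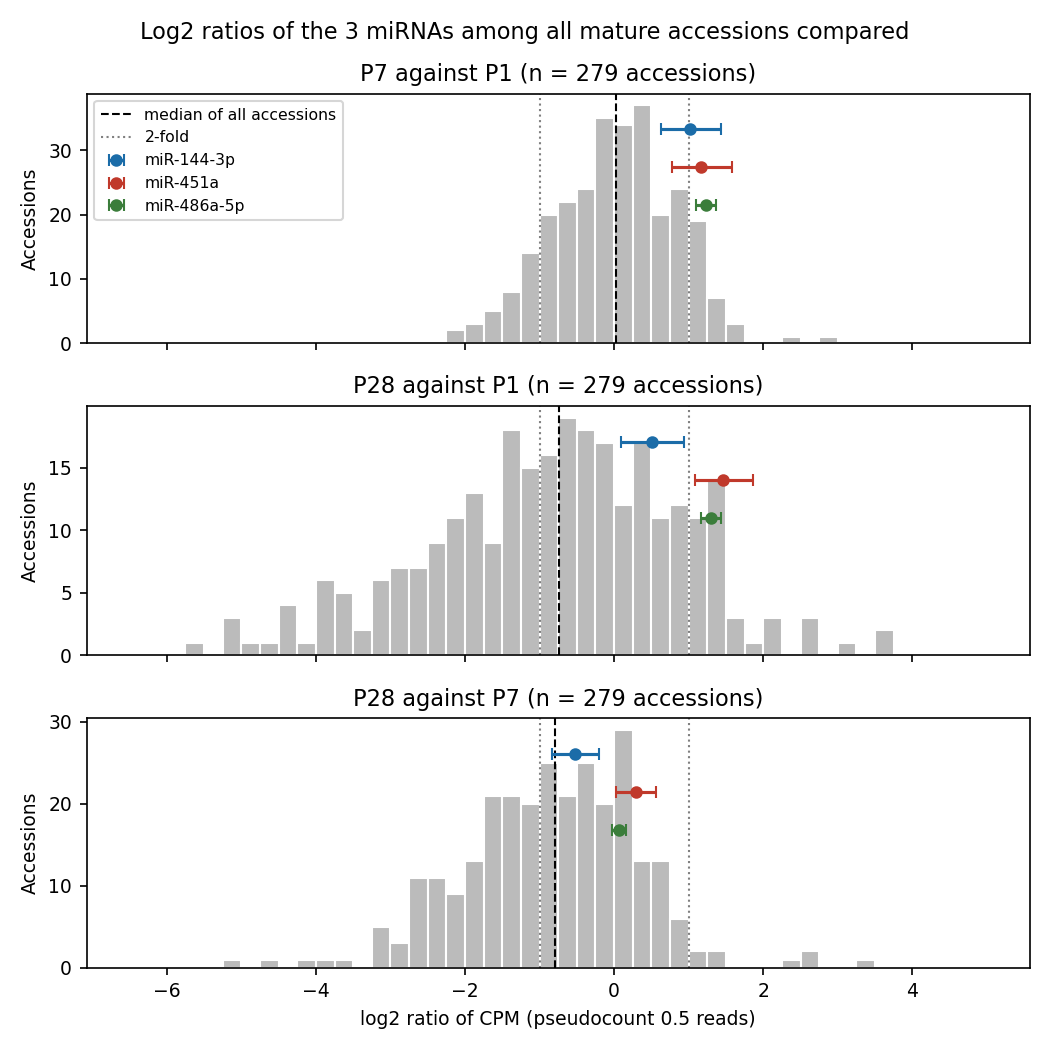
Grey bars count the 279 mature accessions (y axis) by log2 ratio of CPM (x axis) in each comparison. Points are the 3 miRNAs with 95% counting intervals, placed at heights that carry no value, the dashed line is the median of all accessions and dotted lines mark 2-fold. In both comparisons with P28 the median is displaced to the left, to -0.74 and -0.79, and the members lie to the right of it.

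The ratio of 2 miRNAs in the same library does not depend on how libraries are scaled to each other. It compares reads, not molecules, because capture in the library differs between sequences. miR-144-3p and miR-451a, which share a transcript, were read about equally at P1, with 1.04 reads of miR-144-3p for each read of miR-451a (0.741 to 1.47). The ratio was 0.945 at P7 (0.770 to 1.16). At P28 it was 0.537 (0.438 to 0.656), and its interval did not meet that of either younger library. Compared with P1 the ratio at P28 was 0.515 times as large (exact interval 0.345 to 0.770), and compared with P7 it was 0.568 times as large (0.425 to 0.759). Between P1 and P7 the change was 0.906-fold (0.606 to 1.35), so no difference was detectable at this depth.

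miR-486a-5p and miR-451a come from separate loci, on chromosomes 8 and 11, but kept closer proportions in the reads. The P1 library had 8.41 reads of miR-486a-5p for each read of miR-451a (6.56 to 10.9), the P7 library 8.75 (7.55 to 10.2) and the P28 library 7.48 (6.60 to 8.49). The change was 1.04-fold from P1 to P7 (0.768 to 1.39), 0.889-fold from P1 to P28 (0.663 to 1.18) and 0.855-fold from P7 to P28 (0.702 to 1.04). Each of these intervals includes no change, and each also allows a change of some size. For miR-486a-5p to miR-144-3p the ratio was 8.07 in the P1 library (6.32 to 10.4), 9.25 in the P7 library (7.96 to 10.8) and 13.9 in the P28 library (11.8 to 16.5). It was 1.73 times as large at P28 as at P1 (1.27 to 2.33) and 1.504 times as large as at P7 (1.20 to 1.89). From P1 to P7 the change was 1.15-fold (0.849 to 1.54), an interval that includes no change. By counting error alone, the proportions with a change were those of miR-144-3p to the other two, at P28 against either younger library.

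**Figure D3:**
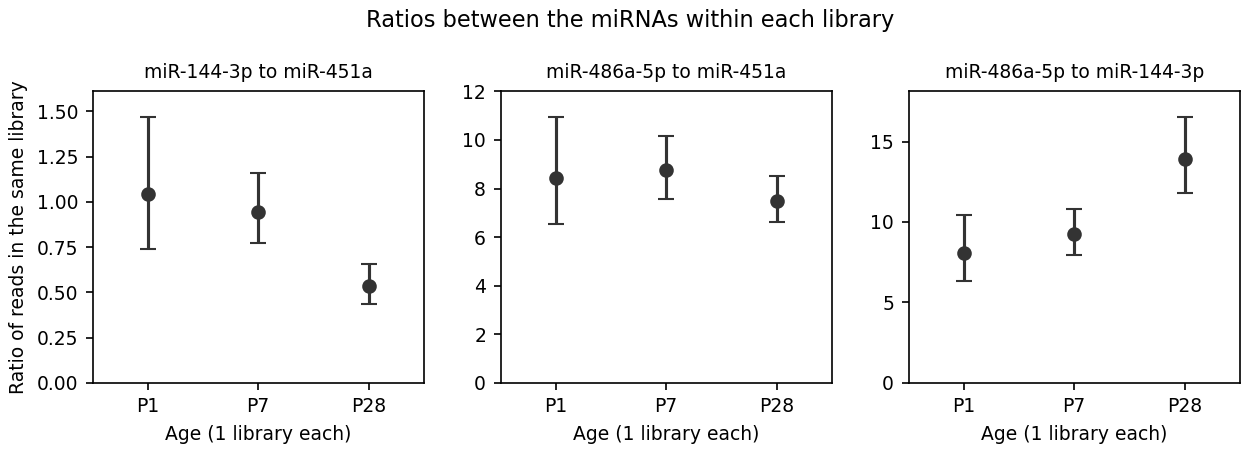
Points are ratios of reads of 2 miRNAs within 1 library (y axis, from 0, a separate scale for each panel) at P1, P7 and P28 (x axis), with 95% exact intervals for counting error. The ratio of miR-144-3p to miR-451a drops from 0.945 at P7 to 0.537 at P28, whereas the intervals for miR-486a-5p to miR-451a overlap at all 3 ages.

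The likeness of the courses was measured by the Euclidean distance between log2 CPM profiles over the 3 libraries, each centred on its own mean, which does not change with the scaling. The distance was 0.16 between miR-451a and miR-486a-5p, 0.58 between miR-144-3p and miR-486a-5p, and 0.73 between miR-144-3p and miR-451a. Of the 134 accessions whose mean reached 100 CPM, 41 lay closer to miR-144-3p than miR-451a did, although miR-451a is its neighbour in the genome. Only 4 of 134 lay closer to miR-451a than miR-486a-5p did. Accessions with identical counts were counted separately here. The 41 included miR-486a-5p and the accession with its counts, and the 4 included a pair with identical counts (216, 631 and 797 reads). The distances have no counting interval, and miR-144-3p and miR-451a had only 73 and 70 reads at P1. The accession nearest to miR-451a was MIMAT0000655, at a distance of 0.11, and it was also among the 3 nearest to miR-486a-5p, at 0.055. Its level went from 1252 CPM in the P1 library to 2865 CPM in the P7 library and 3172 CPM in the P28 library, and the table does not pair it with a name. The nearest accession to miR-144-3p was at 0.11 and the nearest to miR-486a-5p at 0.044, against median distances of 0.96 and 1.35. A profile of 3 libraries has few degrees of freedom, so many accessions have similar courses.

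**Figure D4:**
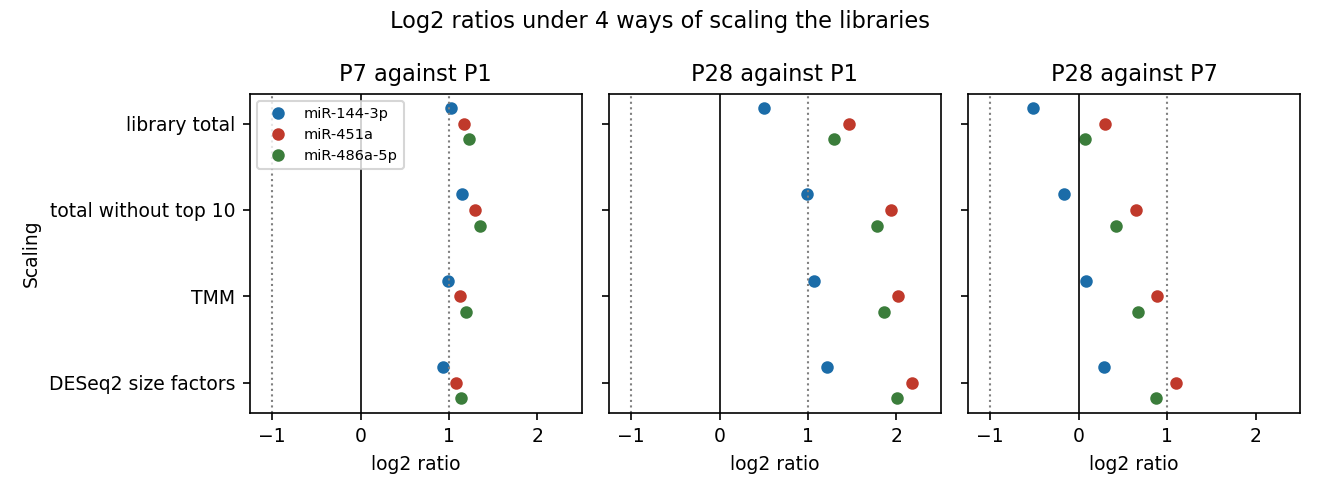
Points are the log2 ratios (x axis) of miR-144-3p, miR-451a and miR-486a-5p under 4 ways of scaling the libraries (y axis), with 1 panel for each comparison, a solid line at 0 and dotted lines at 2-fold. At P7 against P1 the scalings differ little, while at P28 against P7 miR-144-3p goes from -0.52 by library totals to 0.29 with DESeq2 size factors. A scaling moves all 3 miRNAs of a panel by the same amount, so their order cannot change.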

How the data were processed

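Small RNA libraries of hearts (NEBNext kit per the labels) were analysed at P1, P7 and P28, with 1 library each. The authors deposited 1 table of unnormalized read counts. The submitters' processing notes name bcl2fastq, TopHat and mm10, and the methods of the study, written for all of its sequencing, give TopHat2 and counting with Bioconductor packages. The miRBase release, strand use and treatment of reads with several matches are not given in the sources used here. If such reads were counted at every matching place, accessions with a shared sequence would hold identical counts and would enter the library total repeatedly. Rows with counts identical to an earlier row took 8.13% of the total at P1, 5.25% at P7 and 10.1% at P28.

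Rows were summed per accession and divided by the total over all 2049 rows, of which 14 are stem-loop rows. As no age had replicates, edgeR's quasi-likelihood test could not be fitted and no p-value is given. Calls rest on a 2-fold ratio (0.5 reads added, mean of at least 10 CPM). Intervals are 95% Wilson (levels), Clopper-Pearson (ratios) or conditional exact (changes of a ratio). The ratio script was checked on simulated counts with counting error only and changes larger than 2-fold. That check does not cover calls near 2-fold or the spread between hearts. The rule for the members uses accessions only, but it and the lists were written with earlier results of these data known. Named were the 3 members and, of the accessions nearest to them by profile, only that nearest to miR-451a. Planned lists of other arms, red cell, leukocyte, endothelial and muscle miRNAs are not analysed here, because no table used here pairs accessions with names. For the same reason the labelled tissue was not checked against heart miRNAs. Alternatives were other scalings (edgeR 4.0.16, DESeq2 1.42.0), pseudocounts, rows, filters and folds. Python 3.11.15, pandas 2.3.3, numpy 2.4.6, scipy 1.17.1, R 4.3.3 and RNAfold 2.7.2 were used.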

Additional observations from a re-analysis of the deposited data

How the results depend on the processing

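Of 63 log2 ratios of the 3 miRNAs recomputed under an alternative, 45 stayed within the counting interval of the value by library totals and 18 did not. All 18 were comparisons with P28 under TMM scaling, DESeq2 size factors or a total without the 10 most abundant accessions. For P28 against P1 these gave, in that order, 1.07, 1.22 and 0.98 for miR-144-3p, 2.02, 2.17 and 1.94 for miR-451a, and 1.86, 2.01 and 1.77 for miR-486a-5p. For P28 against P7 they gave 0.077, 0.29 and -0.17 for miR-144-3p, 0.89, 1.10 and 0.64 for miR-451a, and 0.67, 0.87 and 0.42 for miR-486a-5p. A total over mature rows, a pseudocount of 5 reads, the largest row of each accession and, chosen after seeing the data, a total with identical rows counted once left all ratios within their intervals, but the second, the first and the last of these took miR-144-3p at P7 against P1 below 2-fold (0.972, 0.994 and 0.979), as did TMM (0.988) and DESeq2 size factors (0.934). As each member has 1 row, the choice of row cannot move a value, within-library ratios included.

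Of 54 counts of called accessions, 36 moved by more than 1.5 times, some of them under filters that changed the number tested from 279. TMM gave 64 higher at P28 against P1, and 31 higher and 65 lower at P28 against P7. DESeq2 size factors gave 77 and 77, then 43 and 55. The total without the 10 accessions gave 59 and 17 higher. By library totals, 24.2% of calls at P28 against P1 were higher, against 43.8% under TMM and 50.0% under DESeq2 size factors. For P7 against P1, P28 against P1 and P28 against P7 in turn, a mean of at least 1 CPM gave 67 higher and 71 lower, 76 and 211, and 39 and 204. A mean of at least 100 CPM (134 tested) gave 17 and 14, 19 and 46, and 2 and 44. No filter (851 tested) gave 208 and 188, 172 and 357, and 111 and 358. A 4-fold threshold gave 2 and 2, 9 and 64, and 4 and 44. A 1.5-fold threshold gave 70 higher and 65 lower in the first of these comparisons, with 22 higher in the last. These filters and thresholds admit more or fewer accessions by construction.

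No paired analysis was possible because there is a single library per age, which also leaves no replicate to omit. Precision is limited most for miR-144-3p and miR-451a at P1, with 73 and 70 reads.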
